A study of Mus musculus with 12 samples.

Results

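Glutathione transferases couple the tripeptide glutathione to reactive electrophiles such as aldehydes from oxidised lipids, and glutathione peroxidases reduce hydrogen peroxide or lipid hydroperoxides. Several peroxidases carry selenocysteine in the active site, while others of the family use cysteine. In brain, both families are largely known as antioxidant and detoxifying enzymes of glia, of barrier cells and, for Gpx4, of neurons. The 10 genes of these families described here, taken by name from the 27833 genes measured, were Gstm1, Gstm2 and Gstm5 (mu class), Gsta4 (alpha class), Gstp1 (pi class), Gpx1, Gpx3, Gpx4, Gpx6 and Gpx8. The genes were taken by their names and not by a threshold on their values.

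RNA-seq of the hippocampus was available as 12 libraries from wild-type (WT) male C57BL/6J mice aged 20 months. Below, n counts libraries. The CON group (n = 3) received 0.2 mL normal saline by oral gavage for 14 days, the PQQ-L group (n = 5) pyrroloquinoline quinone (PQQ) at 5 mg/kg/day and the PQQ-H group (n = 4) PQQ at 10 mg/kg/day, both in the same saline volume. PQQ is a redox-active quinone that serves bacterial dehydrogenases as a cofactor. The study assigned 6 mice to each group, more than the libraries of any group, and the labels do not tie a library to a single mouse.

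Levels are given in FPKM, fragments scaled to gene length and to the fragments of the library, as deposited by the authors. The whole reads behind the FPKM could be recovered, and the reads on genes ranged from 29654553 to 38179496 per library. Differences are log2 fold changes (log2FC) of FPKM + 0.1 from limma, and a gene was called where the log2FC passed 1 in size with an adjusted p below 0.05 over the 13796 genes tested. The pseudocount of 0.1 makes the fold of a low gene smaller. All 10 genes passed the filter on low values, a mean of 0.5 FPKM over the 12 libraries.

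Marker genes of several cell types differed in level between the libraries. The summed level of the hippocampal neuron markers ran from 80.2 FPKM in CON 1 to 483 FPKM in PQQ-H 3. In CON 1, Bok alone gave 35.1 FPKM of the sum, while Neurod6 was at 2.30 FPKM, against 138 FPKM in PQQ-H 3. The 16 choroid plexus markers summed to 1561 to 5492 FPKM in CON, 52.2 to 126 in PQQ-L and 22.0 to 36.6 in PQQ-H, and none of them was at 0 in every library. Of the 15 that were tested, 12 were called lower in PQQ-L and 13 in PQQ-H against CON. Most of the sum in CON came from Ttr, at 3615, 1499 and 5315 FPKM in CON 1 to 3. Kl, the next highest of the list, overlapped between the groups. It was at 0.750 to 27.4 FPKM in CON, 1.73 to 9.20 in PQQ-L and 1.34 to 14.0 in PQQ-H. The 12 striatal medium spiny neuron markers summed to between 1437 and 3710 FPKM in 4 libraries, of which 2 were CON (1 and 3) and 2 were PQQ-H (1 and 2), and to between 40.0 and 190 FPKM in the other 8. No striatal marker was at 0 in every library. These 4 libraries are called striatum-rich in what follows. In bulk tissue, fewer cells of a type and less RNA per cell cannot be told apart.

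Gstm2 and Gpx8 were lower in both PQQ groups than in CON and were the only members called. Their promoters are shown because these genes carried the differences, and that of Gstm5 because it alone among the members with a promoter window held the core of an antioxidant response element. Each is the 250 bases before the RefSeq start on the strand of the gene in GRCm38.p6, at chr3:107986421-107986670 (minus strand) for Gstm2, chr13:113046389-113046638 (minus strand) for Gpx8 and chr3:107895604-107895853 (plus strand) for Gstm5. Capitals mark matches on either strand to the searched motifs, which were the antioxidant response element core TGACNNNGC, the AP-1 site TGANTCA, the GC box GGGCGG and CCAAT.
Gstm2: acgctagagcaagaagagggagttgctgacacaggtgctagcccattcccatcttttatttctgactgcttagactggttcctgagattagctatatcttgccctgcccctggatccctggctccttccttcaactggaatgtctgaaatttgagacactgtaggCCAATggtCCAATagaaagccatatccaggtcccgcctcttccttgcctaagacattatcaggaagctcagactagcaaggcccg
Gpx8: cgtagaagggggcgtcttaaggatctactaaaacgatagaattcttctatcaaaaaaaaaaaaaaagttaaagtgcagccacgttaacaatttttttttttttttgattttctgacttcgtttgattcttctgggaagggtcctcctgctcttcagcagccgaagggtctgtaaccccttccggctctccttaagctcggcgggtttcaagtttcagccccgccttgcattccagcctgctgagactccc
Gstm5: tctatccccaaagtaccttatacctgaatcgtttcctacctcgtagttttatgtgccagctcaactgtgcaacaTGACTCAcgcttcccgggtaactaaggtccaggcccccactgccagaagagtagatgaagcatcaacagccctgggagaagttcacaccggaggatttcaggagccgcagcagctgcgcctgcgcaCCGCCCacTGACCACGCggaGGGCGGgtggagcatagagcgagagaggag

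The Gstm2 window held CCAAT at 85 to 81 and at 77 to 73 bases before the start, and the Gpx8 window held none of these motifs. In Gstm5 the antioxidant response element core lay 42 to 34 bases before the start, between a pair of GC boxes. RefSeq gave windows for 9 of the 10 members, all but Gsta4, and 13 windows in all. Of the 32851 mouse promoter windows of this length, 10.2% held the antioxidant response element core, 6.75% the AP-1 site, 32.7% the GC box and 33.8% CCAAT. Among the members, the AP-1 site was in the windows of Gstm5 and Gstp1. A letter match is a description of the sequence and not a binding site.

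**Figure D1:**
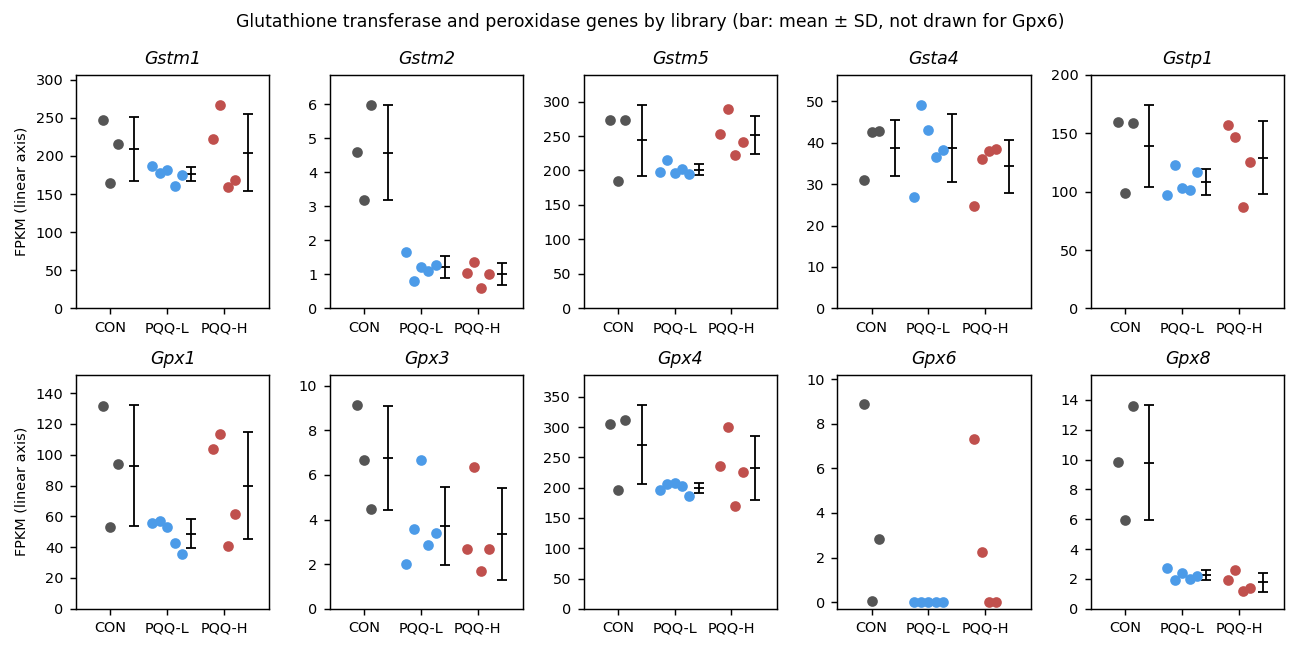
Level of the 10 genes in FPKM (linear axes), 1 point per library, for CON (grey, n = 3), PQQ-L (blue, n = 5) and PQQ-H (red, n = 4), with the mean and SD of each group beside the points except for Gpx6. Gstm2 and Gpx8 lie above all PQQ libraries in each of the 3 CON libraries, while Gpx6 is between 2.24 and 8.87 FPKM in 4 libraries and at 0.0436 FPKM or less in the other 8.

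The members spanned a wide range of levels. Gpx4, which reduces phospholipid hydroperoxides in membranes and guards cells against ferroptosis, and Gstm5 had a mean of 229 and 228 FPKM over the 12 libraries. They were followed by Gstm1 (194 FPKM), Gstp1 (123), Gpx1 (70.2) and Gsta4 (37.2). Gpx3, the secreted peroxidase of plasma (4.35 FPKM), Gpx8 (3.98), Gstm2 (1.99) and Gpx6 (1.78) were far lower. Gpx4 and Gstm5 could not be ordered, with ranges over the libraries of 171 to 312 and 184 to 289 FPKM. Gpx4 was the higher in CON 1 (305 against 273 FPKM) and Gstm5 in PQQ-H 1 (253 against 235 FPKM). The 4 lowest genes also had overlapping ranges, but within every library Gpx8 was above Gstm2. From the lowest to the highest library, Gstm5 varied 1.57-fold, Gstm1 1.67-fold, Gpx4 1.83-fold, Gstp1 1.84-fold, Gsta4 1.98-fold, Gpx1 3.73-fold, Gpx3 5.36-fold, Gstm2 9.85-fold and Gpx8 11.4-fold.

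Whether PQQ changed the expression of these enzymes was examined first for the low dose. In PQQ-L vs. CON, 2 of the 10 genes were called, both lower, where 0.471% of all genes tested were called lower and 0% higher. All 10 had a log2FC below 0, a direction shared by 53.9% of all genes, with a median of −0.63 against −0.03 over all genes tested. In PQQ-H vs. CON the same 2 genes were called lower (0.819% of all genes called lower), and 9 of 10 had a log2FC below 0 against 55.6% of all genes, with a median of −0.23 against −0.03. Between the doses 4 of the 10 had a log2FC below 0, against 54.3% of all genes, with a median of 0.19 against −0.02. None of the 10 was called, and none of the 13796 genes was called by limma on FPKM, nor any gene by voom on the recovered reads. At an unadjusted p below 0.05, 4.6% of all genes were lower and 3.55% higher in PQQ-H than in PQQ-L, and Gstm5 (higher) was the only member among them. The comparisons with CON share the same 3 control libraries. Nothing in the labels says more than that the libraries are separate samples of a group, so p-values measure the spread between these samples.

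Gpx8 is a peroxidase anchored in the membrane of the endoplasmic reticulum, where it takes part in oxidative protein folding and uses cysteine. Its level was 9.83, 5.95 and 13.6 FPKM in CON 1 to 3, against 2.73, 1.95, 2.37, 1.98 and 2.18 FPKM in PQQ-L 1 to 5 and 1.95, 2.59, 1.19 and 1.40 FPKM in PQQ-H 1 to 4. Every PQQ library was below every CON library, whereas the PQQ groups overlapped each other. The reads behind these values were 185 to 478 per library in CON and 44 to 103 in the PQQ groups. The log2FC was −2.01 ± 0.275 (SE) in PQQ-L vs. CON (limma adjusted p = 0.00651) and −2.38 ± 0.288 in PQQ-H vs. CON (limma adjusted p = 0.00173). Between the doses the log2FC was −0.36, with a 95% interval of −0.92 to 0.19 (limma adjusted p = 0.605).

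Gstm2 is a mu-class transferase of the Gstm cluster. In CON it stood at 4.59, 3.17 and 5.97 FPKM, in PQQ-L at 1.67, 0.813, 1.22, 1.10 and 1.28 FPKM, and in PQQ-H at 1.05, 1.38, 0.606 and 1.02 FPKM. As with Gpx8, the CON libraries did not overlap with either PQQ group. Of all genes tested, 7.66% lay wholly lower in PQQ-L than in CON and 5.72% in PQQ-H than in CON. The log2FC was −1.82 ± 0.275 (SE) in PQQ-L vs. CON (limma adjusted p = 0.0113) and −2.07 ± 0.288 in PQQ-H vs. CON (limma adjusted p = 0.00482). Between the doses it was −0.26, with a 95% interval of −0.81 to 0.30 (limma adjusted p = 0.684). The two-sided exact permutation test, the smallest p of which is 0.0357 for 5 against 3 libraries and 0.0571 for 4 against 3, gave these smallest values for both Gstm2 and Gpx8.

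In CON, the order of the libraries by Gstm2, by Gpx8 and by the summed choroid plexus markers was the same, with CON 3 (5492 FPKM of markers) highest, then CON 1 (3711) and CON 2 (1561). The orders differed within the PQQ groups. In PQQ-L the markers were highest in PQQ-L 4 (126 FPKM) and lowest in PQQ-L 5 (52.2), but both genes were highest in PQQ-L 1 and lowest in PQQ-L 2. PQQ-H 2 was highest by markers and by both genes, but the markers were lowest in PQQ-H 1 (22.0 FPKM) and both genes in PQQ-H 3. With the choroid plexus marker score of each library as a covariate, no gene of the 13796 was called in either comparison with CON. The log2FC of Gpx8 was then −0.24 ± 0.825 (SE) in PQQ-L and −0.16 ± 1.02 in PQQ-H, and that of Gstm2 −0.43 ± 0.897 and −0.34 ± 1.11. The score did not overlap between CON and the PQQ groups, so the score and the group cannot be told apart in this fit. Ependymal markers also moved, with sums of 34.5 (CON 1) to 57.3 (CON 3) FPKM in CON, 15.0 to 38.0 in PQQ-L and 6.02 to 17.9 in PQQ-H. Meningeal fibroblast markers summed to 27.2 to 69.7, 17.9 to 56.3 and 12.4 to 17.5 FPKM. No marker of these 2 lists was at 0 throughout a group, and their part in the Gstm2 and Gpx8 differences was not tested.

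**Figure D2:**
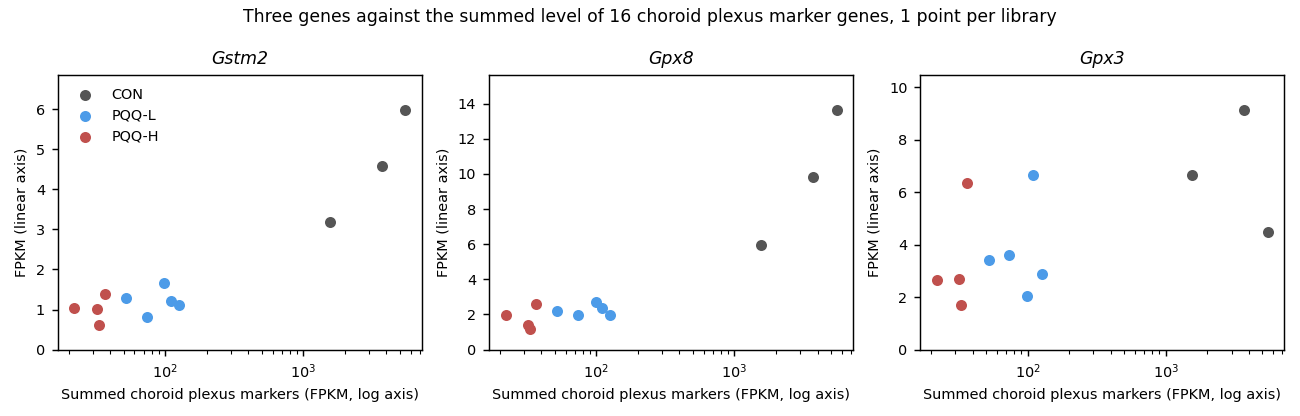
FPKM of Gstm2, Gpx8 and Gpx3 (linear axes) against the summed FPKM of 16 choroid plexus marker genes (log axis), 1 point per library, for CON (grey), PQQ-L (blue) and PQQ-H (red). The 3 CON libraries lie apart at marker sums of 1561 to 5492 FPKM, with the highest Gstm2 and Gpx8, while Gpx3 in CON overlaps with PQQ libraries at low marker sums. Most of the sum in CON is Ttr.

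At the low dose, the calls depended on CON 1 and CON 3. The difference was smaller in size without either of them and smaller still without both. Without CON 2 it was larger, with a log2FC of −2.05 for Gstm2 and −2.33 for Gpx8. Without CON 1 the log2FC in PQQ-L vs. CON was −1.79 for Gstm2 and −1.97 for Gpx8, and neither was called (limma adjusted p = 0.0954 and 0.0634). Without CON 3 it was −1.60 for Gstm2, which was not called, and −1.74 for Gpx8, which was (limma adjusted p = 0.0801 and 0.0400). Without the 4 striatum-rich libraries, which leaves CON 2 as the lone control, the log2FC was −1.35 for Gstm2 and −1.38 for Gpx8 in PQQ-L vs. CON (limma adjusted p = 0.915 and 0.167), and −1.88 and −2.12 in PQQ-H vs. CON (0.257 and 0.0365). At the high dose both remained called whichever single library was left out. The library names open with R or L, which the labels do not explain. Within the 7 libraries named with L the difference in mean log2 was −1.79 (PQQ-L) and −2.07 (PQQ-H) for Gstm2 and −2.06 and −2.24 for Gpx8. Within the 5 named with R, which include a single CON and a single PQQ-H library, it was −1.86 and −2.06 for Gstm2 and −2.03 and −2.73 for Gpx8.

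Ratios within a library do not depend on how libraries are scaled, and each called gene has a close relative that was not called. Gstm2 and Gstm1, its neighbour in the cluster, were set against each other, as were Gpx8 and Gpx7, the other endoplasmic reticulum peroxidase, pairs chosen after their values were seen. Gstm2 amounted to 1.85% to 2.76% of the Gstm1 FPKM in CON, 0.459% to 0.897% in PQQ-L and 0.380% to 0.605% in PQQ-H. Gpx8 amounted to 306% to 852% of the Gpx7 FPKM in CON, 94.0% to 156% in PQQ-L and 71.5% to 88.7% in PQQ-H. Since the pairs were chosen for what they showed, these ratios are a description with no test. Gpx7 itself was not called, at 2.15 ± 0.686 FPKM (SD) in CON, 1.69 ± 0.299 in PQQ-L and 2.28 ± 0.813 in PQQ-H.

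**Figure D3:**
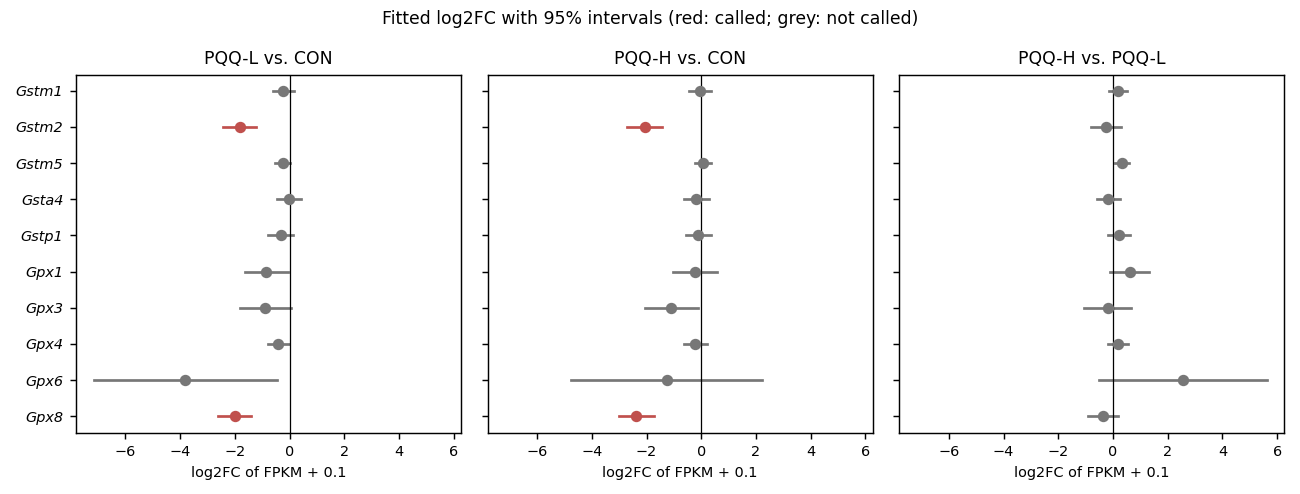
Fitted log2FC of FPKM + 0.1 with 95% intervals for the 10 genes in the 3 comparisons, red where called and grey where not. Gstm2 and Gpx8 are the only called genes in both comparisons with CON, and the interval of Gpx6 in PQQ-L vs. CON runs from −7.17 to −0.47.

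Gpx6, a close relative of Gpx3 known from olfactory epithelium, showed the widest spread of the members. It had 8.87, 0.0436 and 2.84 FPKM in CON (487, 2 and 147 reads). In PQQ-L it had 0.0180, 0.0169 and 0.0181 FPKM, or 1 read each, in the first 3 libraries and none in the other 2. In PQQ-H it had 7.34 and 2.24 FPKM (399 and 112 reads) in PQQ-H 1 and 2 and none in PQQ-H 3 and 4. The gene was thus detected well in both a CON pair and a PQQ-H pair, and at or below 2 reads in the other 8 libraries. A count of 3 reads, the limit that a count of 0 allows, corresponds to between 0.0508 and 0.0654 FPKM here.

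CON 2, with 2 reads, and all 5 PQQ-L libraries, with 0 or 1 read each, lay under this limit, so CON 2 could not be placed above PQQ-L. Gpx6 also passed the filter on low values only through the 4 libraries in which it was detected well. Per read on genes, CON as a group held 385 times the Gpx6 reads of PQQ-L (636 against 3 reads, 95% interval 131 to 1873, counting error only). CON 1 alone gave 487 of these reads. Without it the ratio was 141 (interval 47.3 to 692), and for CON 2 alone it was 4.03 (interval 0.337 to 35.2). The difference between PQQ-L and CON was not called, with a log2FC of −3.82 ± 1.53 (SE) and a limma adjusted p of 0.235. In PQQ-H vs. CON the groups overlapped, with a log2FC of −1.27 and a 95% interval of −4.77 to 2.23 (limma adjusted p = 0.842). PQQ-H vs. PQQ-L gave a log2FC of 2.55 with an interval of −0.52 to 5.62 (limma adjusted p = 0.580).

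The 4 libraries with Gpx6 at 2.24 FPKM or more were the striatum-rich ones, and 5 further members followed the same split. Gpx1, Gpx4, Gstm1, Gstm5, Gstp1 and Gpx6 were each higher in all 4 striatum-rich libraries than in all of the other 8. This held for 6 of the 10 members and for 10.7% of all genes tested. Gpx6 passed the filter on low values only through these 4 libraries, so its place in that count carries no weight. The other 5 members did not depend on them to pass. Gpx1 ranged from 93.7 to 132 FPKM in these 4 libraries and from 35.3 to 61.7 FPKM in the other 8. The respective ranges were 235 to 312 and 171 to 226 FPKM for Gpx4, 216 to 267 and 159 to 186 for Gstm1, 253 to 289 and 184 to 241 for Gstm5, and 147 to 160 and 86.8 to 125 for Gstp1. The split follows measured marker levels and not the study's groups, so these ranges are a description with no test. The total FPKM was also higher in these 4 libraries, 371731 to 400869 against 343933 to 365108. After rescaling each library to the same total (TPM), Gpx6 and the 5 further members still separated, as did 5.56% of all genes. For Gpx6 this again carries no weight. Some of the other marker lists divided the libraries in the same way. The summed oligodendrocyte markers were at 1806 to 2839 FPKM in the 4 libraries against 986 to 1729 FPKM in the other 8, microglia markers at 355 to 462 against 245 to 307, endothelial markers at 185 to 231 against 136 to 182, and basal forebrain cholinergic markers at 8.92 to 33.4 against 0.0267 to 0.754. Hippocampal neuron markers were lower in the 4 libraries (80.2 to 163 against 209 to 483 FPKM), as were general neuron markers (2050 to 2225 against 2419 to 2511 FPKM). Astrocyte markers overlapped, at 801 to 1036 against 785 to 987 FPKM. The blood, choroid plexus, ependymal, meningeal fibroblast and thalamic neuron lists overlapped as well. The part of any of these lists in the levels of the 6 genes was not tested.

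**Figure D4:**
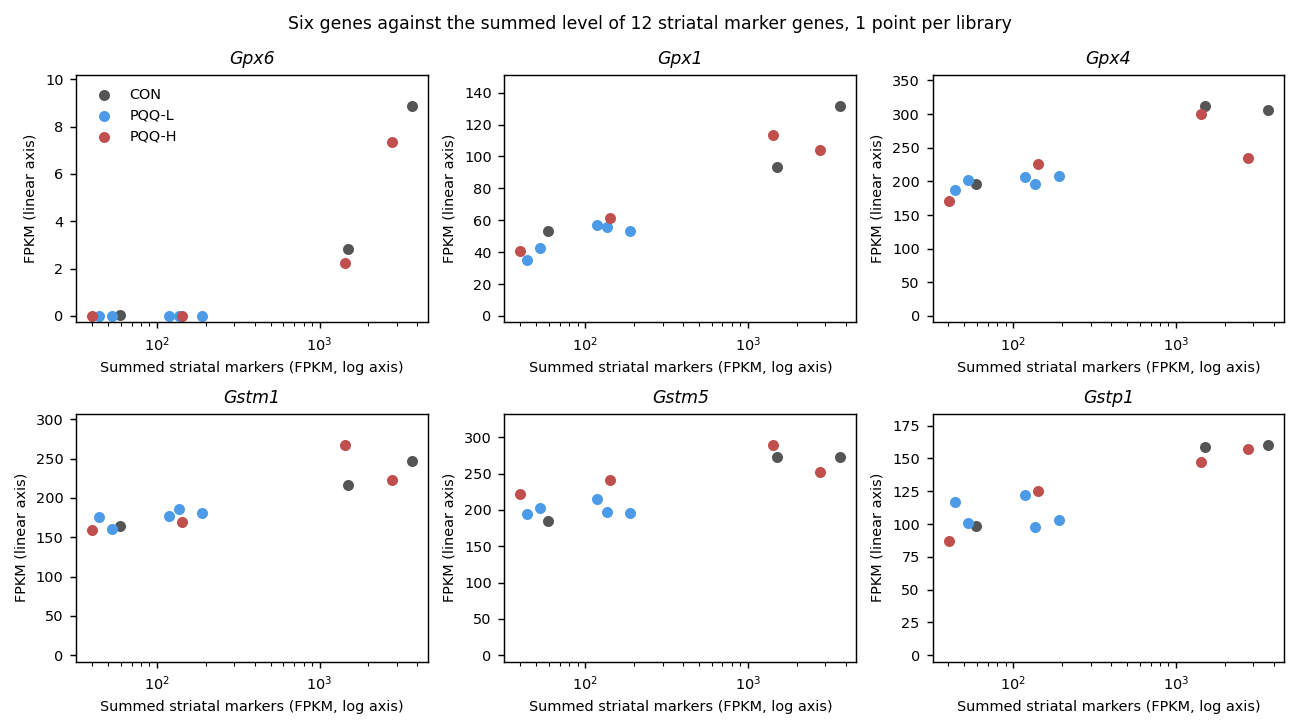
FPKM of 6 genes (linear axes) against the summed FPKM of 12 striatal marker genes (log axis), 1 point per library, for CON (grey), PQQ-L (blue) and PQQ-H (red). In each panel the 4 libraries with marker sums of 1437 FPKM or more, from CON and PQQ-H, lie above the other 8.

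The other members did not follow this split. Gsta4, an alpha-class transferase that acts on reactive aldehydes of lipid peroxidation, was at 30.9, 42.4 and 42.8 FPKM in CON, 26.8, 49.0, 43.1, 36.5 and 38.3 FPKM in PQQ-L and 24.7, 36.0, 37.9 and 38.4 FPKM in PQQ-H. Its lowest library in each group was replicate 1, and the groups overlapped throughout. Against CON, the log2FC was −0.01 at the low dose, with a 95% interval of −0.46 to 0.43, and −0.18 at the high dose, with an interval of −0.65 to 0.28.

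Gpx3 was at 9.12, 6.67 and 4.47 FPKM in CON, 2.03, 3.59, 6.66, 2.86 and 3.40 FPKM in PQQ-L, and 2.67, 6.35, 1.70 and 2.68 FPKM in PQQ-H. It was lower than all CON libraries in 4 of 5 PQQ-L and 3 of 4 PQQ-H libraries, but PQQ-L 3 and PQQ-H 2 lay within the CON range. The log2FC of −0.90 ± 0.424 (SE) in PQQ-L and −1.10 ± 0.444 in PQQ-H was not called (limma adjusted p = 0.249 and 0.432).

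Gpx1, the abundant cytosolic selenoenzyme that reduces hydrogen peroxide, stood at 132, 53.1 and 93.7 FPKM in CON, 55.8, 57.0, 53.3, 42.8 and 35.3 FPKM in PQQ-L, and 104, 114, 40.8 and 61.7 FPKM in PQQ-H. The control CON 2 lay within the PQQ-L range. The log2FC was −0.85 ± 0.355 (SE) in PQQ-L (limma adjusted p = 0.235) and −0.23 in PQQ-H, with an interval of −1.05 to 0.58. Gpx1 and Gpx6 were called lower in PQQ-L vs. CON when CON 2 was left out, at −1.21 and −5.54 (limma adjusted p = 0.0402 and 0.0326). The controls were then the striatum-rich CON 1 and CON 3 alone, and 431 genes were called lower and 434 higher, against 65 and 0 with all libraries. Gpx6 passed the filter on low values only through the striatum-rich libraries, so its call in that fit carries no weight.

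Gpx4 was at 305, 196 and 312 FPKM in CON, 197, 206, 207, 202 and 187 FPKM in PQQ-L, and 235, 299.6, 171 and 226 FPKM in PQQ-H. CON 1 and CON 3 lay above every PQQ library, and CON 2 within the PQQ-L range. The log2FC was −0.41 ± 0.179 (SE) in PQQ-L (limma adjusted p = 0.239) and −0.22 in PQQ-H, with an interval of −0.63 to 0.19.

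Gstm5 was the member nearest to a difference between the doses, at 253, 289, 222 and 241 FPKM in PQQ-H and 197, 215, 196, 203 and 194 FPKM in PQQ-L. All 4 PQQ-H libraries were above all 5 PQQ-L libraries, as for 1.42% of all genes tested. The log2FC of 0.32 ± 0.118 (SE) was not called (limma adjusted p = 0.580). In CON, Gstm5 was at 273, 184 and 273 FPKM, which overlapped with both PQQ groups.

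Against CON, Gstm1 had log2FC intervals of −0.60 to 0.15 at the low dose and −0.43 to 0.35 at the high dose. For Gstp1 they were −0.78 to 0.11 and −0.58 to 0.36. Neither gene was called. The coefficient of variation of Gstm1 was 5.36% in PQQ-L against 20.2% in CON and 24.5% in PQQ-H, that of Gstp1 10.0% against 25.3% and 24.2%, and that of Gpx4 4.26% against 24.0% and 22.7%. Not all members were steadier in PQQ-L. The coefficient of Gsta4 was highest there, at 21.3% against 17.4% in CON and 18.8% in PQQ-H. For Gpx3 it was 47.4% in PQQ-L against 34.5% in CON and 61.3% in PQQ-H. PQQ-L is the group with no striatum-rich library, and the part of this in the variation was not tested.

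The Gstm genes lie side by side in the order Gstm5, Gstm7, Gstm6, Gstm3, Gstm2, Gstm1 and Gstm4 in the RefSeq annotation, and Gstm2 alone of the 6 tested was called. The log2FC of the others ran from −0.39 (Gstm7) to 0.11 (Gstm4) at the low dose and from −0.07 (Gstm7) to 0.16 (Gstm6) at the high dose. Gstm3 was at a mean of 0.0522 FPKM and was not tested. Near-identical sequence can move reads between such genes. In GENCODE M21 transcripts, 0.357% of the stretches of 100 bases of Gstm2 also occurred in transcripts of another gene, 5.86% of those of Gstm1 and 5.58% of Gstm5. The share was 25.1% for Gstp1 (with Gstp2 and Gstp-ps) and 25.2% for Gpx4 (mainly Gpx4-ps2), so these 2 levels are less certain, and it was 0% for Gsta4, Gpx1, Gpx3, Gpx6 and Gpx8.

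The rest of the glutathione pathway was examined in 4 gene lists. Of 22 further transferases 20 were in the table and 14 were tested, of 3 further peroxidases only Gpx7 was tested, and all 22 genes of glutathione synthesis, recycling and turnover and all 10 genes of selenoprotein synthesis were tested. None of these genes had an adjusted p below 0.05 in any comparison with limma, the smallest being 0.191. At an unadjusted p below 0.05, 3 of the further transferases (Gstm7, Gstt2 and Gstt3) and 4 genes of glutathione turnover (Abcc1, G6pdx, Glrx5 and Pgd) were lower in PQQ-L vs. CON, beside 11.6% of all genes lower and 8.92% higher. In PQQ-H vs. CON these were 4 transferases (Gstt1, Gstt2, Gstt3 and Mgst1) and 2 genes of turnover (Oplah and Slc3a2), beside 7.88% of all genes lower and 1.85% higher. No gene of the 4 lists was higher at that threshold in either comparison.

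Among the further transferases, 12 of 14 had a log2FC below 0 in PQQ-L (median −0.42) and 10 of 14 in PQQ-H (median −0.19). The largest differences were those of Gsta3, an alpha-class transferase, with −1.34 ± 0.695 (SE) in PQQ-L vs. CON, and of the theta-class genes Gstt2 (−0.76 ± 0.274 in PQQ-L and −0.89 ± 0.286 in PQQ-H) and Gstt1 (−0.80 ± 0.268 in PQQ-H). Between the doses, Gsta3 was 1.35 ± 0.638 higher and Gstm7 0.32 ± 0.164 higher in PQQ-H on the log2 scale. None of these was called.

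For glutathione synthesis, recycling and turnover, 13 of 22 genes were below 0 in PQQ-L (median −0.06) and 16 of 22 in PQQ-H (median −0.08). Ggt1, which breaks down extracellular glutathione, had a log2FC of −0.60 and −0.54, and G6pdx, which supplies NADPH through the pentose phosphate pathway, −0.54 in PQQ-L. Slc7a11, the cystine transporter that feeds glutathione synthesis, had −0.35 in PQQ-H vs. CON and −0.51 between the doses, and for G6pdx the latter was 0.23. For selenoprotein synthesis 6 and 5 of the 10 genes were below 0. Lrp8, a receptor for the selenium carrier Selenop, had 0.31 in PQQ-L and −0.37 between the doses, Selenop −0.26 and −0.20 against CON, Scly −0.16 in PQQ-H, and Trnau1ap 0.16 between the doses. None of these was called either.

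**Figure D5:**
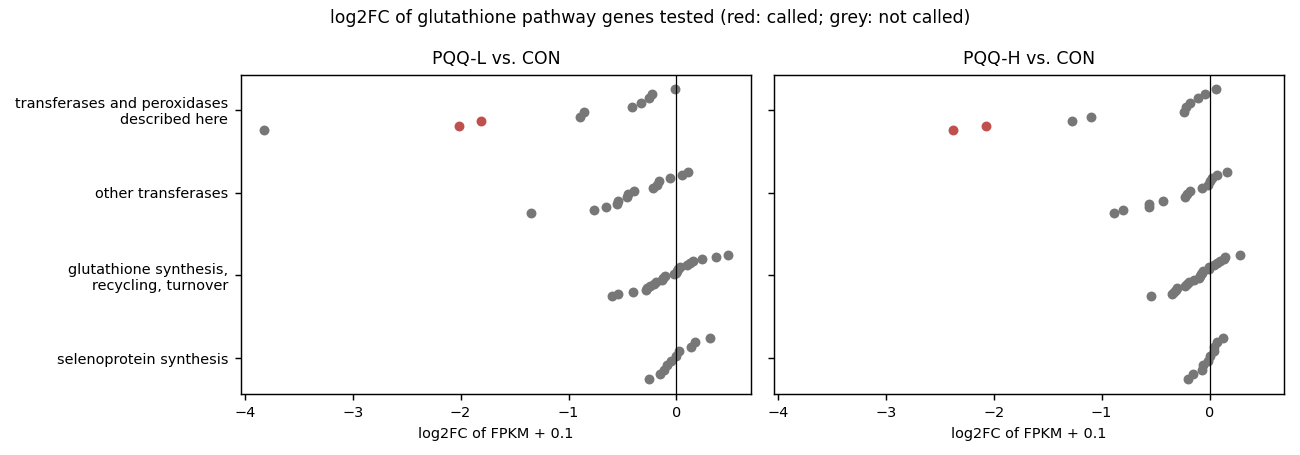
log2FC of FPKM + 0.1 against CON at the low dose (left) and the high dose (right), 1 point per tested gene, for the 10 genes described here, 14 further transferases, 22 genes of glutathione synthesis, recycling and turnover and 10 of selenoprotein synthesis, with called genes in red. The called genes are Gstm2 and Gpx8 in both panels, and the selenoprotein list lies closest to 0.

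Finally, the genes most like each member over the 12 libraries were listed by Pearson's r on log2 values after group means were taken off. These r values are a description over libraries that share their depth and tissue mix. Gstm2 was most like Tmem123, Ifih1 and Ap4m1 (r = 0.980 for Tmem123), and Gpx8 most like Ifitm2, Plvap and Mccc1 (0.974, 0.966 and 0.965). Gpx6 was most like Gm34162, Gm46111 and Gm39043 (0.996, 0.994 and 0.994), and Gpx1 most like Kxd1, Smim32 and Abhd4 (0.995, 0.986 and 0.986). Gpx6 was detected well only in the 4 striatum-rich libraries, through which it passed the filter. Its r values therefore describe mainly the split between these and the other 8 libraries, where it was near 0. Gstm5 and Gpx4 were most like genes that include ribosomal proteins, Rpl30 and Rplp1 for Gstm5 (0.986 and 0.981) and Rpl26, Ost4 and Myl6 for Gpx4 (0.987, 0.985 and 0.983). The peroxiredoxin gene Prdx6, which encodes another peroxidase, came first for Gstm1 (0.989), before Fbxo6 and Ly6a. Gstp1 was most like Pdcd6, Ormdl2 and Secisbp2 (0.968, 0.968 and 0.965), Gpx3 most like 3830406C13Rik, Nkain4 and Lnx1 (0.958, 0.938 and 0.936), and Gsta4 most like Hacd3, Aldoa and Il6ra (0.941, 0.940 and 0.935).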

How the data were processed

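The 12 RNA-seq libraries were grouped by the treatment labels. The authors filtered reads with fastp, mapped them with HISAT2, counted them with HTSeq-count and deposited FPKM values for 27833 genes. The submitters' processing notes name the build mm39. Program versions, annotation and strand setting are not given in the sources used here, so reads of overlapping antisense genes cannot be told apart. Whole reads were recovered from the FPKM ratios between libraries, for 100% of the 25563 genes above 0 in at least 2 libraries (tolerance 0.02 reads), and give the depth. Intervals from them cover counting error only.

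The 13796 genes that averaged 0.5 FPKM or more were fitted with limma 3.58.1 in R 4.3.3, a moderated test with trend on log2(FPKM + 0.1) in a single fit of 12 libraries, with Benjamini-Hochberg adjustment over all genes tested. Alternatives were voom on the recovered reads, other pseudocounts, filters, scalings, variance models and covariates, and each library left out. Scripts were tested on simulated data. Single genes were compared with two-sided exact permutation tests in scipy 1.17.1. The marker score is the mean log2(FPKM + 0.1) of a list, and a library was called striatum-rich at a striatal score above 5. Genes named were all 10 members, per pathway list and comparison the 2 with the largest log2FC, those with an adjusted p below 0.05, and per member the 3 genes of highest r, of which 1 is not reported here. Genes named at an unadjusted p below 0.05 and the ratio pairs were chosen after their values were seen. Promoter windows came from RefSeq (GRCm38.p6) and shared stretches from GENCODE M21. The members and gene lists were chosen with earlier results of these data known.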

Additional observations from a re-analysis of the deposited data

How the results depend on the processing

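With limma, the 2 members called in PQQ-L vs. CON and the 2 in PQQ-H vs. CON stayed 2 in 13 of 18 settings each, and 0 were called between the doses in all 18. Array quality weights left 0 in PQQ-L and 1 in PQQ-H, and the replicate block left 0 and 0. The choroid plexus score left 0 and 0, both marker scores together (added after seeing the data) 0 and 0, and removal of the 4 striatum-rich libraries (also added) 0 and 1. When each library was left out in turn, 0 to 4 members were called in PQQ-L vs. CON, 2 in PQQ-H vs. CON and 0 between the doses. The 4 without CON 2 include Gpx6, which passed the filter only through the striatum-rich libraries. The labels do not say whether libraries with the same replicate number were paired. Their deviations from the group means correlated at −0.619 to 0.717, highest for CON 1 with PQQ-H 1, both striatum-rich. These correlations cannot show whether the samples were paired. In the fit with the replicate block, Gstm2 had a log2FC of −1.84 (adjusted p = 0.214) and −2.07 (0.0925) at the low and high dose, Gpx8 −1.93 (0.181) and −2.30 (0.0533), and Gstm1 0.019 in PQQ-H vs. CON.

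Over all genes, the number called lower in PQQ-L vs. CON moved from 65 to 112 without a filter, 42 with a mean FPKM of at least 1, 40 with the striatal score, 123 with voom, 17 with array weights, 23 with the block, 1 without the striatum-rich libraries and 0 with the choroid plexus score or both scores. In PQQ-H vs. CON it moved from 113 to 68 with a mean FPKM of at least 1, 57 with only the 2 groups compared, 31 with array weights, 48 with the block, 5 without the striatum-rich libraries and 0 with the choroid plexus score or both scores. The causes were not tested.

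Changes of sign concerned members that were not called, and the pair called against CON only between the doses. In PQQ-L vs. CON, Gsta4 turned to 0.030 with median-of-ratios scaling, 0.031 with quantile normalization, 0.10 with TPM and 0.042 with array weights. Gstm1 in PQQ-H vs. CON turned to 0.025 with median-of-ratios scaling. With the choroid plexus score, PQQ-L vs. CON gave 0.22 for Gstm1, 0.38 for Gstm5, 0.38 for Gsta4, 0.063 for Gstp1, 0.20 for Gpx1 and 0.52 for Gpx4. PQQ-H vs. CON gave 0.51 for Gstm1, 0.30 for Gsta4, 0.39 for Gstp1, 1.09 for Gpx1, 0.95 for Gpx4 and 3.01 for Gpx6, and PQQ-H vs. PQQ-L 0.092 for Gstm2 and 0.085 for Gpx8. The SE of these values ran from 0.42 (Gstm5) to 1.25 (Gpx1) in PQQ-L vs. CON and from 0.715 (Gpx4) to 6.75 (Gpx6) in PQQ-H vs. CON. The choroid plexus score, alone or beside the striatal score, cannot be told apart from the group in the comparisons with CON, so these signs carry little weight. With the striatal score, Gstm1 was at 0.082, 0.060 and −0.021 in the 3 comparisons and Gstp1 at 0.014, 0.0079 and −0.0065, and Gpx4 at −0.0052 between the doses. With both scores, PQQ-L vs. CON gave 0.25 for Gstm5, 0.56 for Gsta4 and 0.32 for Gpx4, PQQ-H vs. CON 0.75 for Gsta4 and 0.45 for Gpx4, and PQQ-H vs. PQQ-L −0.053 for Gstm1, 0.19 for Gsta4, −0.076 for Gstp1 and −0.048 for Gpx6. Without the striatum-rich libraries, where Gpx6 no longer passed the filter, PQQ-L vs. CON gave 0.10 for Gstm1, 0.12 for Gstm5, 0.13 for Gstp1 and 0.025 for Gpx4. PQQ-H vs. CON gave 0.0013 for Gstm1 and 0.081 for Gstp1, and PQQ-H vs. PQQ-L −0.10 for Gstm1, 0.0064 for Gsta4, −0.049 for Gstp1 and −0.026 for Gpx4. With a library left out, the signs also changed for Gpx1 (−0.59 to 0.066), Gstm1 (−0.21 to 0.088), Gstm5 (−0.13 to 0.16) and Gstp1 (−0.34 to 0.070) in PQQ-H vs. CON, Gsta4 (−0.16 to 0.11) in PQQ-L vs. CON and Gpx3 (−0.56 to 0.056) between the doses.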

Other observations

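Several related genes lay under the filter on low values and entered no test. Of the further transferases, Gsto2, an omega-class enzyme, was highest with a mean of 0.406 FPKM (0.163 to 0.728 over the 12 libraries), followed by Gsta2 with 0.193 FPKM (0 to 0.532). Gsta1, Gstm3, Gstp3 and Mgst2 had means of 0.00828, 0.0522, 0.0275 and 0.0533 FPKM. Gpx2, the peroxidase of the gut epithelium, had a mean of 0.0762 FPKM with a highest library of 0.633 FPKM, and Gpx5, known from the epididymis, was above 0 in a single library at 0.0166 FPKM.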
